A study of Mus musculus with 12 samples.

Results

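The expression of 10 genes of cellular iron import, export and storage was examined in cultured mouse hematopoietic stem cells (HSCs) with and without the fusion gene ETV6-RUNX1. The genes were the rows of the deposited gene table named Slc40a1, Tfrc, Steap3, Slc11a2, Fth1, Ftl1, Ncoa4, Hmox1, Ireb2 and Aco1, which are 10 of the 40481 genes listed. They were chosen by measured values of this table, since the CPM of Slc40a1 (its read count scaled to the depth of the library) was much higher in ETV6-RUNX1 than in wild-type (WT) fetal liver cells. For that reason the levels of the 10 genes in ETV6-RUNX1 against WT fetal liver are given as a description with no test, and tests are given for bone marrow and for the WT cells.

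The study had 12 libraries in 4 groups of 3. The groups were WT HSCs from bone marrow at 8 weeks, HSCs with inducible ETV6-RUNX1 (iE/R) from bone marrow of that age, WT HSCs from fetal liver at E14.5 (embryonic day), and iE/R HSCs from fetal liver of that day. Cells of all 4 groups, WT included, spent 3 days in HSC expansion culture with doxycycline at 1 µg/mL, so every value is that of cultured and doxycycline-exposed cells. The promoter behind the induced fusion, the sex of the mice, the number of animals per library and whether the libraries came from separate cultures are not given in the sources used here, so p-values measure only the spread between these libraries, which may be technical.

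Iron enters blood cells mainly as transferrin taken up by the transferrin receptor, is reduced in the endosome and crosses its membrane into the cytosol. There it is used for heme and iron-sulfur clusters or stored in ferritin, and the surplus leaves through ferroportin. When cytosolic iron is low, the iron regulatory proteins IRP1 and IRP2 bind hairpins in messenger RNAs called iron-responsive elements (IREs): bound near the 5′ end they block translation, and bound in the 3′ untranslated region (UTR) of the transferrin receptor messenger they keep it from decay. Macrophages that clear red cells, erythroid precursors and HSCs draw on the same genes to different degrees.

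The IREs of the members are shown because they set apart the genes whose RNA level alone does not tell the protein level from the gene whose RNA stability they govern. The UTRs of GENCODE M21 on GRCm38 were searched, on the transcript strand only, for CNNNNNCAGTGN followed by 5 bases that pair with the 5 before the loop (G-T pairs allowed). Each sequence is 29 bases, 5′ to 3′, and the capitals mark the bulged C and the 6-base loop.
Slc40a1, 5′ UTR, chr1:45925465-45925493, minus strand: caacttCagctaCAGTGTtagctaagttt
Fth1, 5′ UTR, chr19:9982732-9982760, plus strand: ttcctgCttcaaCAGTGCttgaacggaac
Ftl1, 5′ UTR, chr7:45459779-45459807, minus strand: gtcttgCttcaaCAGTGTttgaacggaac
Tfrc, 3′ UTR, chr16:32631219-32631247, plus strand: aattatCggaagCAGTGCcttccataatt
Tfrc, 3′ UTR, chr16:32631598-32631626, plus strand: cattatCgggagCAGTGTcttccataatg
Tfrc, 3′ UTR, chr16:32631663-32631691, plus strand: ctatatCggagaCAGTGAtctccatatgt
Tfrc, 3′ UTR, chr16:32631710-32631738, plus strand: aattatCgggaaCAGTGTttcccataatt

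A 5′ UTR match was found in 3 of the 10 members, Slc40a1, Fth1 and Ftl1, against 0.151% of all genes with an annotated 5′ UTR (31 of 20597). A 3′ UTR match was found in 1 of the 10, Tfrc, with 4 matches, against 0.614% of genes with a 3′ UTR (129 of 20995). The other 6 members had no match of these letters in their annotated UTRs, which says nothing of other forms of the element. A match is a description of the sequence, not a measurement of binding.

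Levels are given as CPM (reads of the gene per M reads of its library). Library totals ran from 32.3 to 64.5 M reads, and the smallest read number of any member in any library was 65 reads, so all 10 members stood above 1 CPM in all 12 libraries and all 10 passed the filter of at least 1 CPM in at least 3 libraries. Tests were run with limma on log2(CPM + 1) over all 14271 genes that passed, and a gene was called when its Benjamini-Hochberg adjusted p was under 0.05. The 8 HSC markers looked at (among them Cd34, Procr, Slamf1, Mecom and Hlf) were all above the filter, and their summed level was 1538 to 2452 CPM in WT and 2726 to 3954 CPM in ETV6-RUNX1 libraries. Of 8 hepatocyte markers, Ttr, Serpina1a, Fgb and Ahsg were at or under 3 reads in every library, and Alb was so in all but ETV6-RUNX1 fetal liver replicate 3, which had 12 reads. Afp, in contrast, was at 13.0 to 36.5 CPM in all 12 libraries, with its highest level in bone marrow, Apoa1 was at 0.233 to 2.08 CPM and Apoa2 at 0.185 to 1.13 CPM.

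Slc40a1 encodes ferroportin, the iron exporter of mammalian cells (ENSMUSG00000025993, chromosome 1, 45908068 to 45926523, minus strand, GRCm38). In WT bone marrow it was at 2.88, 6.50 and 5.23 CPM in replicates 1 to 3, and in ETV6-RUNX1 bone marrow at 14.0, 22.8 and 11.9 CPM. In WT fetal liver it was at 1.41, 1.61 and 1.15 CPM, and in ETV6-RUNX1 fetal liver at 82.3, 147 and 87.8 CPM. The groups did not overlap: every WT fetal liver library lay below every WT bone marrow library, every ETV6-RUNX1 bone marrow library lay above both WT groups, and every ETV6-RUNX1 fetal liver library lay above all others. The group means were 4.87 ± 1.84 CPM (SD, n = 3) in WT and 16.2 ± 5.79 CPM in ETV6-RUNX1 bone marrow, a ratio of 3.33. They were 1.39 ± 0.230 CPM in WT and 106 ± 36.1 CPM in ETV6-RUNX1 fetal liver, a ratio of 76.3 that was among the values used to choose the genes and is not tested. In bone marrow, whose libraries the choice did not use, Slc40a1 rose by 1.56 ± 0.29 (SE) on the log2(CPM + 1) scale (limma, Benjamini-Hochberg adjusted p = 0.00299). The rise was called under all 22 other settings tried, at 1.28 to 2.03. Some of these settings, such as leaving out a fetal liver library or changing the gene filter, cannot change the difference and vary only its p-value. Among the ETV6-RUNX1 libraries alone, the mean level in fetal liver was 6.52 times that in bone marrow, while among the WT libraries the mean in bone marrow was 3.51 times that in fetal liver.

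**Figure D1:**
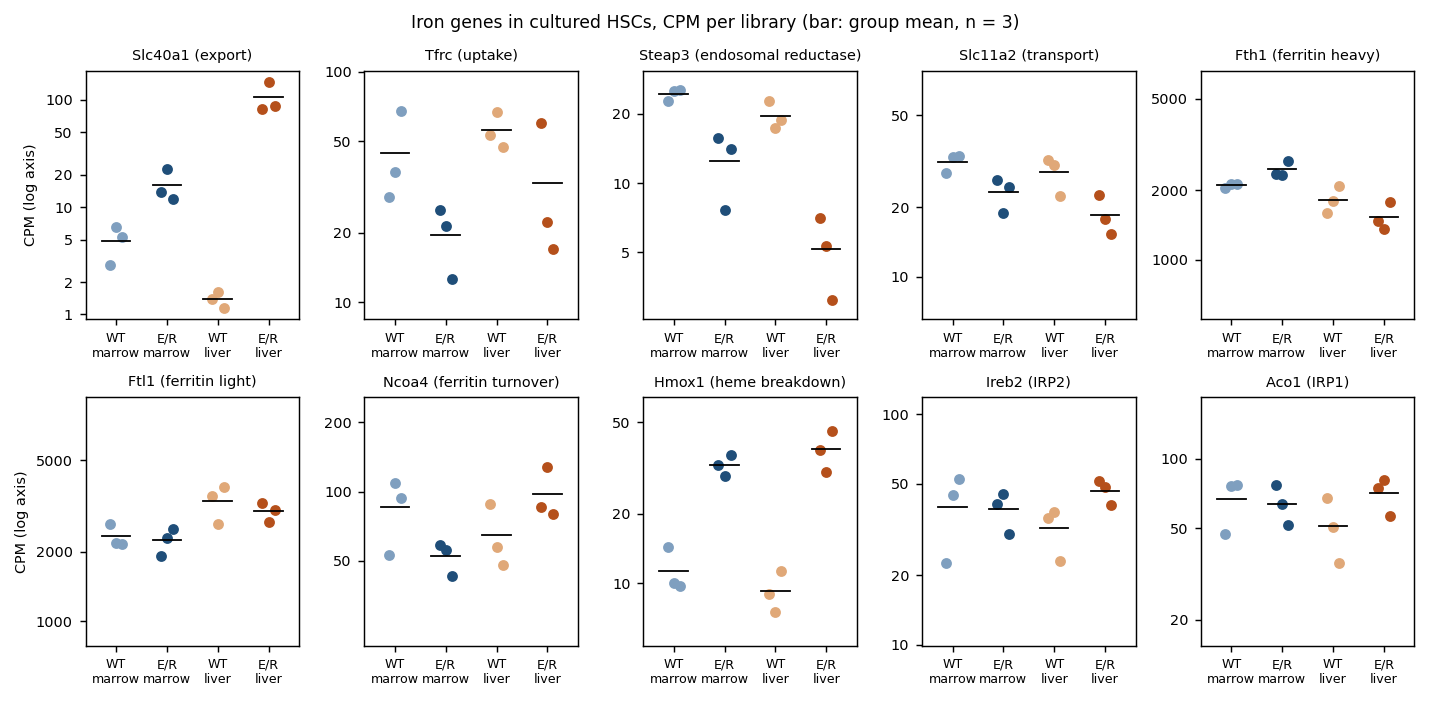
Level of each of the 10 iron genes in the 12 libraries, in CPM on a log axis whose range differs between panels. Points are libraries, bars are group means (n = 3), E/R stands for ETV6-RUNX1, marrow for bone marrow and liver for fetal liver. Slc40a1 runs from 1.15 to 147 CPM with no overlap between groups, Hmox1 is above both WT groups in all 6 ETV6-RUNX1 libraries, and Steap3 is below both WT groups in all 6.

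Macrophages are the cells best known for high ferroportin, so their markers are given beside these values. The summed level of 12 macrophage markers was 38.6 to 58.7 CPM in WT and 97.2 to 121 CPM in ETV6-RUNX1 bone marrow, and 42.5 to 49.6 CPM in WT and 125 to 151 CPM in ETV6-RUNX1 fetal liver. Cd68, a lysosomal protein, made up most of the sum, with means of 41.9 and 89.7 CPM in bone marrow and 43.5 and 105 CPM in fetal liver (WT first). Of the 6 markers that passed the filter, 2 were called higher in bone marrow (Cd68 and Spic) and 5 in fetal liver (Cd68, Spic, Csf1r, Vcam1 and Adgre1), each with a limma Benjamini-Hochberg adjusted p under 0.05, where 14.4% and 24.8% of all genes were called higher. Spic, the transcription factor of red pulp macrophages, was at 1.28 ± 0.477 CPM in WT and 14.6 ± 10.6 CPM in ETV6-RUNX1 bone marrow (SD, n = 3). In fetal liver Spic was at 0.0766 ± 0.0231 CPM in WT and 17.9 ± 6.40 CPM in ETV6-RUNX1 cells. Mrc1, the remaining marker that passed, was not called in either source. In fetal liver it was at 1.82, 1.56 and 1.04 CPM in WT and at 1.30, 0.377 and 2.07 CPM in ETV6-RUNX1 libraries. Timd4, which did not pass, was there at 0.324, 0.251 and 0.481 CPM in WT and at 0.378, 0 and 0.0300 CPM in ETV6-RUNX1 libraries. Cd163, a macrophage receptor listed with the heme genes and not among the 12, was called lower in bone marrow. It was at 2.51, 6.54 and 4.73 CPM in WT and at 1.54, 2.38 and 1.86 CPM in ETV6-RUNX1 bone marrow. In fetal liver Cd163 was at 0.173, 0.234 and 0 CPM in WT and at 0, 0 and 0.0300 CPM in ETV6-RUNX1 libraries. The complement gene C1qa, abundant in tissue macrophages, was at or under 3 reads in all 12 libraries, while C1qb, C1qc, Cd5l and Marco were so in at least 2 of the 4 groups each. The part of these markers in the Slc40a1 values was not tested, and in such pooled cells fewer cells of a type cannot be told apart from less RNA per cell.

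Iron uptake was represented by Tfrc, Steap3 and Slc11a2. All 3 had lower means in ETV6-RUNX1 than in WT cells of both sources, and only Steap3 passed the test in bone marrow. Tfrc, the transferrin receptor (ENSMUSG00000022797, chromosome 16, 32608920 to 32632794), was at 28.6, 37.0 and 67.8 CPM in WT and at 25.0, 21.4 and 12.6 CPM in ETV6-RUNX1 bone marrow. Every ETV6-RUNX1 library lay below every WT library, but WT replicate 3 was well above the other WT libraries. The difference was -1.10 ± 0.40 on the log2(CPM + 1) scale and was not called (limma, Benjamini-Hochberg adjusted p = 0.0690). It was called with median-of-ratios scaling (adjusted p = 0.0331), quantile normalization (0.0274) and edgeR (0.0394), and in limma without WT bone marrow replicate 1 (0.0459) or ETV6-RUNX1 fetal liver replicate 1 (0.0255). Without WT bone marrow replicate 3 the limma difference was -0.75 (0.229), and with the processed pseudogene share as a covariate it was -0.61 (0.318).

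In fetal liver Tfrc was at 53.0, 67.3 and 47.0 CPM in WT and at 59.8, 22.4 and 17.0 CPM in ETV6-RUNX1 libraries. ETV6-RUNX1 replicate 1 lay inside the WT range and the other 2 replicates far below it, so the groups overlapped. The means were 55.8 ± 10.4 and 33.1 ± 23.3 CPM (SD, n = 3).

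Steap3 is the ferrireductase that turns ferric into ferrous iron in the endosome (ENSMUSG00000026389, chromosome 1, 120190757 to 120272705). It was at 22.6, 25.1 and 25.2 CPM in WT and at 15.7, 7.64 and 14.0 CPM in ETV6-RUNX1 bone marrow, with no overlap. Its level fell by 0.97 ± 0.27 on the log2(CPM + 1) scale (limma, Benjamini-Hochberg adjusted p = 0.0226), and the WT mean was 1.95 times the ETV6-RUNX1 mean. The call was lost in limma without WT replicate 2 (adjusted p = 0.0586), WT replicate 3 (0.0586) or ETV6-RUNX1 replicate 2 (0.102) of the bone marrow libraries. It was also lost over all genes with reads (0.0705) and with the processed pseudogene share of each library as a covariate (0.0757). In fetal liver Steap3 was at 22.6, 17.2 and 18.7 CPM in WT and at 7.08, 5.35 and 3.12 CPM in ETV6-RUNX1 libraries. All 3 ETV6-RUNX1 libraries were again below all WT libraries, and the WT mean was 3.77 times the ETV6-RUNX1 mean.

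Slc11a2 encodes DMT1, which carries ferrous iron out of the endosome (ENSMUSG00000023030, chromosome 15, 100387898 to 100425072). It was at 28.0, 32.9 and 33.3 CPM in WT and at 26.3, 18.9 and 24.5 CPM in ETV6-RUNX1 bone marrow. The groups did not overlap but lay close, and the difference of -0.43 ± 0.19 was not called (limma, Benjamini-Hochberg adjusted p = 0.130). It was called with median-of-ratios scaling (adjusted p = 0.0378), quantile normalization (0.0274), edgeR (0.0388) and DESeq2 (0.0232). It was -0.24 with the processed pseudogene share as a covariate (0.408) and -0.29 without ETV6-RUNX1 bone marrow replicate 2 (0.376). In fetal liver Slc11a2 was at 32.1, 30.4 and 22.4 CPM in WT and at 22.7, 17.7 and 15.3 CPM in ETV6-RUNX1 libraries, which overlapped by 1 library. Gm5475, which overlaps it on the other strand, did not exceed 0.135 CPM.

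The storage genes Fth1, Ftl1 and Ncoa4 had no called difference in bone marrow with limma. Ferritin is a shell of heavy chains, which oxidize ferrous iron, and light chains, which help lay down the mineral core. Fth1, the heavy chain (ENSMUSG00000024661, chromosome 19, 9980598 to 9985098), was at 2040.1, 2135 and 2127 CPM in WT and at 2361, 2335 and 2691 CPM in ETV6-RUNX1 bone marrow. All ETV6-RUNX1 libraries were above all WT libraries, by a margin too small for a call (0.23 ± 0.14, limma, Benjamini-Hochberg adjusted p = 0.272). The size depended on the setting: it was 0.44 and called with quantile normalization (adjusted p = 0.0307), and not called at 0.07 with median-of-ratios scaling (0.812), 0.08 with edgeR (0.762), 0.09 with DESeq2 (0.752) and 0.04 with the pseudogene covariate (0.841). In fetal liver it was at 1598, 1788 and 2077 CPM in WT and at 1474, 1352 and 1787 CPM in ETV6-RUNX1 libraries, where the lower values belonged to ETV6-RUNX1 and the groups overlapped.

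Ftl1, the light chain (ENSMUSG00000050708, chromosome 7, 45457944 to 45459884), was at 2649.8, 2176 and 2166 CPM in WT and at 1919, 2296 and 2515 CPM in ETV6-RUNX1 bone marrow. The 2 groups overlapped and the difference was -0.06 ± 0.16 (limma, Benjamini-Hochberg adjusted p = 0.834). In fetal liver it was at 3499.7, 2644 and 3833 CPM in WT and at 3264, 2685 and 3031 CPM in ETV6-RUNX1 libraries, which also overlapped. Reads of both ferritin genes can be shared with near-identical copies, of which Ftl1-ps1 was listed at 45.2 to 135 CPM, Ftl1-ps2 at 7.13 to 20.1 CPM, Ftl2-ps at 2.04 to 5.72 CPM and Fth-ps2 at 0.467 to 2.35 CPM, so the Fth1 and Ftl1 values are uncertain by an amount not measured here.

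Ncoa4 encodes the receptor that delivers ferritin to the lysosome for iron release (ENSMUSG00000056234, chromosome 14, 32159865 to 32179855). It was at 52.9, 109 and 94.2 CPM in WT and at 58.4, 55.9 and 43.1 CPM in ETV6-RUNX1 bone marrow. WT replicate 1 lay among the ETV6-RUNX1 libraries, and the difference of -0.64 ± 0.27 was not called (limma, Benjamini-Hochberg adjusted p = 0.114). It was called without that library (-0.95, adjusted p = 0.0216) and with median-of-ratios scaling (0.0372), quantile normalization (0.0383), edgeR (0.0345) and DESeq2 (0.0104), while it shrank to -0.05 (adjusted p = 0.843) with the processed pseudogene share of each library as a covariate. In fetal liver Ncoa4 was at 88.2, 57.6 and 48.2 CPM in WT and at 85.8, 128 and 79.9 CPM in ETV6-RUNX1 libraries. There the ETV6-RUNX1 mean was the higher one, at 98.0 ± 26.4 against 64.7 ± 20.9 CPM (SD, n = 3), with overlap.

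The balance of the ferritin chains was followed as the ratio of Fth1 to Ftl1 CPM within each library, a ratio that the scaling of libraries cannot change. It was 0.770, 0.981 and 0.982 in WT and 1.23, 1.02 and 1.07 in ETV6-RUNX1 bone marrow. All 3 ETV6-RUNX1 values were above all 3 WT values (means 1.11 ± 0.111 and 0.911 ± 0.122, SD, n = 3; exact two-sided permutation test, p = 0.1, the smallest this design allows, Benjamini-Hochberg adjusted p = 0.133 over 4 tests). In WT fetal liver the ratio was 0.457, 0.676 and 0.542, below every WT bone marrow library (exact permutation p = 0.1, adjusted p = 0.133). In ETV6-RUNX1 fetal liver it was 0.452, 0.504 and 0.589, inside or beside the WT fetal liver range, with a mean of 0.515 ± 0.0696.

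Tfrc and Fth1 carry IREs at opposite ends, and their ratio within a library was taken as well. Tfrc per 1000 CPM of Fth1 was 14.0, 17.3 and 31.9 in WT and 10.6, 9.15 and 4.68 in ETV6-RUNX1 bone marrow. The ETV6-RUNX1 values were all below the WT values (means 8.15 ± 3.09 and 21.1 ± 9.52, SD, n = 3; exact two-sided permutation p = 0.1, Benjamini-Hochberg adjusted p = 0.133). In fetal liver the ratio was 33.2, 37.6 and 22.6 in WT and 40.6, 16.6 and 9.52 in ETV6-RUNX1 libraries, where ETV6-RUNX1 replicate 1 was the highest of all 12. Between the WT sources the means were 31.1 ± 7.70 in fetal liver and 21.1 ± 9.52 in bone marrow, with overlap (exact permutation p = 0.2, adjusted p = 0.2).

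**Figure D2:**
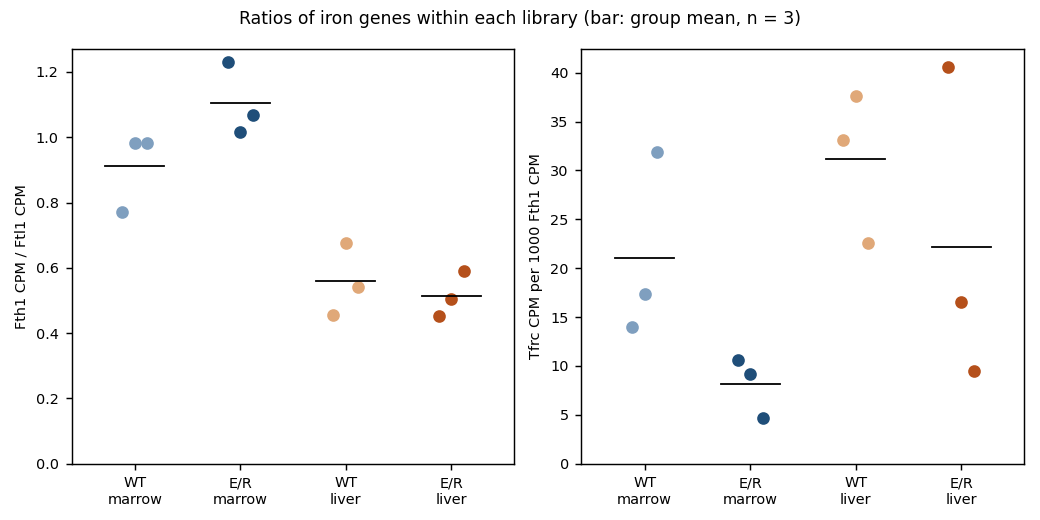
Ratio of Fth1 to Ftl1 CPM (left) and Tfrc CPM per 1000 CPM of Fth1 (right) in each library, on linear axes from 0. Points are libraries and bars are group means (n = 3), with E/R for ETV6-RUNX1. The Fth1 to Ftl1 ratio is at least 0.770 in all bone marrow libraries and at most 0.676 in all fetal liver libraries.

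Heme breakdown, which returns iron to the cytosol, was represented by Hmox1, the inducible heme oxygenase (ENSMUSG00000005413, chromosome 8, 75093621 to 75100589). It was at 14.3, 9.97 and 9.72 CPM in WT and at 32.5, 29.2 and 36.0 CPM in ETV6-RUNX1 bone marrow. The groups were far apart, with means of 11.3 ± 2.60 and 32.6 ± 3.42 CPM (SD, n = 3) and a ratio of 2.87. Hmox1 rose by 1.46 ± 0.21 on the log2(CPM + 1) scale (limma, Benjamini-Hochberg adjusted p = 0.000506), and it was called under all 22 other settings, at 1.12 to 1.63. As for Slc40a1, some of those settings vary only the p-value. In fetal liver it was at 8.99, 7.50 and 11.3 CPM in WT and at 37.9, 30.4 and 45.9 CPM in ETV6-RUNX1 libraries, again with no overlap, and the ratio of the means was 4.11.

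The regulators Ireb2 and Aco1 showed no called difference in bone marrow. Ireb2 encodes IRP2 (ENSMUSG00000032293, chromosome 9, 54863789 to 54912530) and was at 22.5, 44.5 and 52.3 CPM in WT and at 40.9, 45.1 and 30.3 CPM in ETV6-RUNX1 bone marrow. The ETV6-RUNX1 values fell within the WT range, with a difference of 0.03 ± 0.27 (limma, Benjamini-Hochberg adjusted p = 0.951). In fetal liver Ireb2 was at 35.4, 37.5 and 23.1 CPM in WT and at 51.2, 48.2 and 40.4 CPM in ETV6-RUNX1 libraries, all of them above WT.

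Aco1 encodes the cytosolic aconitase that becomes IRP1 when it lacks its iron-sulfur cluster (ENSMUSG00000028405, chromosome 4, 40143081 to 40198338). It was at 47.2, 76.3 and 76.7 CPM in WT and at 76.7, 63.5 and 51.4 CPM in ETV6-RUNX1 bone marrow, groups that overlapped (-0.05 ± 0.25, limma, Benjamini-Hochberg adjusted p = 0.913). In fetal liver it was at 67.3, 50.6 and 35.2 CPM in WT and at 74.4, 81.2 and 56.3 CPM in ETV6-RUNX1 libraries, with overlap. Ireb2, Aco1, Ncoa4, Tfrc, Slc11a2 and Slc40a1 were lowest of their group in WT bone marrow replicate 1 and WT fetal liver replicate 3. Those were the WT libraries with the most reads in processed pseudogenes, at 2.39% and 2.53%. Tfrc, Ireb2, Aco1 and Ncoa4 were also lowest of their group in ETV6-RUNX1 bone marrow replicate 3 and ETV6-RUNX1 fetal liver replicate 3. Those had the highest share of their groups, at 2.74% and 2.06%. The share was 1.72% to 2.39% in WT and 2.29% to 2.74% in ETV6-RUNX1 bone marrow. In fetal liver it was 1.77% to 2.53% in WT and 1.33% to 2.06% in ETV6-RUNX1 libraries. The share and the genotype thus cannot be fully told apart, and they went together in opposite directions in the sources. With that share as a covariate the bone marrow difference was 0.55 for Ireb2 (limma, Benjamini-Hochberg adjusted p = 0.0763) and 0.47 for Aco1 (adjusted p = 0.0429), so that Aco1 changed sign and was called.

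Counted together, 3 of the 10 members were called in bone marrow, 2 higher (Slc40a1, Hmox1) and 1 lower (Steap3), against 19.4% of all genes tested. With 10 genes these shares, both from the deposited scaling, are close enough that the count is no result about the set. Groups did not overlap for 6 of the 10, 3 higher (Slc40a1, Hmox1, Fth1) and 3 lower (Tfrc, Steap3, Slc11a2), against 34.5% of all genes. The median difference was -0.05 over the members and 0.13 over all genes. With edgeR and with quantile normalization, which centre the libraries by construction, the median of all genes was 0.00 and -0.04, so a shift from scaling and a shift in the cells cannot be told apart. Of all genes, 14.4% were called higher and 4.93% lower with the deposited scaling (2059 and 704 genes), against 1384 and 1355 genes with edgeR. With median-of-ratios scaling or edgeR the members called were 6, namely the same 3 with Tfrc, Slc11a2 and Ncoa4 lower. Of all 14271 genes, 2829 were called with median-of-ratios scaling and 2739 with edgeR. The set was not tested as a whole under any setting.

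**Figure D3:**
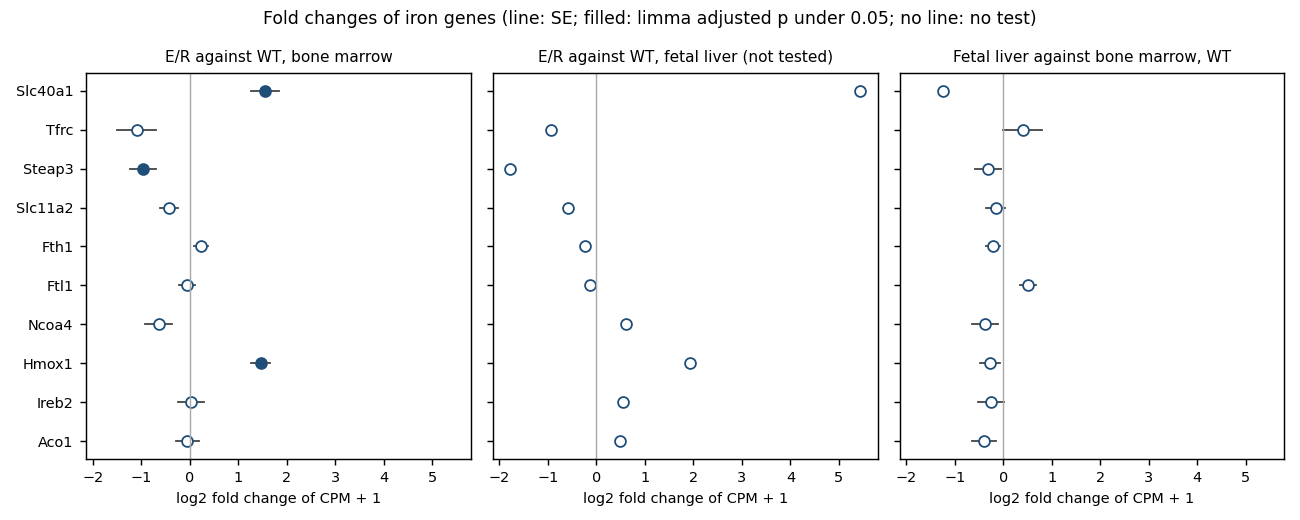
Difference in log2(CPM + 1) for each iron gene in ETV6-RUNX1 against WT bone marrow (left), ETV6-RUNX1 against WT fetal liver (centre, described without a test) and WT fetal liver against WT bone marrow (right), on a shared axis. Lines are the limma SE, filled points have a Benjamini-Hochberg adjusted p under 0.05, and points with no line were not tested. Slc40a1 at 5.44 and Hmox1 at 1.93 lie farthest to the right in fetal liver, and Steap3 at -1.78 farthest to the left.

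In fetal liver the differences on the log2(CPM + 1) scale, as a description, were 5.44 for Slc40a1, 1.93 for Hmox1, 0.61 for Ncoa4, 0.55 for Ireb2 and 0.49 for Aco1. They were -0.14 for Ftl1, -0.25 for Fth1, -0.58 for Slc11a2, -0.93 for Tfrc and -1.78 for Steap3. Groups did not overlap for 4 of the 10 (Slc40a1, Hmox1, Ireb2 and Steap3), where 55.6% of all genes did not overlap, and 43.1% of all genes were called in this comparison (24.8% higher and 18.3% lower). Beside the bone marrow values, Slc40a1 and Hmox1 were higher in both sources and Tfrc, Slc11a2 and Steap3 lower in both, while Fth1 and Ncoa4 differed in sign between the sources and the bone marrow differences of Ftl1, Ireb2 and Aco1 were close to 0 (-0.06, 0.03 and -0.05). On that scale the fetal liver difference minus the bone marrow one was 3.88 for Slc40a1, 1.25 for Ncoa4, 0.54 for Aco1 and 0.52 for Ireb2. It was 0.47 for Hmox1, 0.17 for Tfrc, -0.08 for Ftl1, -0.16 for Slc11a2, -0.47 for Fth1 and -0.81 for Steap3, without a test.

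Erythroid cells take up most of the body's iron, and fetal liver is a main site of their formation, so their markers are given too. The summed level of 9 erythroid markers was 220 to 506 CPM in WT and 410 to 621 CPM in ETV6-RUNX1 bone marrow, and 706 to 985 CPM in WT and 1382 to 2149 CPM in ETV6-RUNX1 fetal liver. Most of that sum was the globin gene Hbb-bt, which alone reached 648 to 908 CPM in WT and 1238 to 1961 CPM in ETV6-RUNX1 fetal liver. Of the 6 that passed the filter, 0 were called in bone marrow, and Hbb-bs, Hbb-bt and Hba-a1 were called higher in fetal liver (limma), where 24.8% of all genes were. The erythroid transcription factor Klf1 had the lower values in ETV6-RUNX1 fetal liver, at 0.315, 0.180 and 0.0300 CPM against 0.497, 0.954 and 0.512 CPM in WT, and was not called (-0.49, limma, Benjamini-Hochberg adjusted p = 0.113). Epb42, a red cell membrane protein gene, was at 1.22 to 1.80 CPM in ETV6-RUNX1 and 0.837 to 1.17 CPM in WT fetal liver and was not called. Tfrc and Steap3 had lower means in ETV6-RUNX1 than in WT fetal liver, with overlap between the groups for Tfrc. The endothelial and stromal markers summed to 75.4 to 106 CPM in WT and 162 to 188 CPM in ETV6-RUNX1 fetal liver, mostly Pecam1 at 59.3 to 82.1 and 122 to 155 CPM. Of the 6 that passed the filter, 3 were called higher (Pecam1, Cdh5 and Lyve1) and 1 lower, Pdgfrb, which was at 9.02, 3.80 and 3.33 CPM in WT and 0.189, 0.0180 and 0.480 CPM in ETV6-RUNX1 fetal liver. Together these are 66.7% of the 6, against 43.1% of all genes. Mitochondrial reads were 0.923% to 1.11% in ETV6-RUNX1 fetal liver against 1.35% to 1.85% in the other groups. The part of these in the members' values was not tested.

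Between the WT sources, 9 members were tested and 0 were called in fetal liver against bone marrow, against 11.1% of all genes (3.38% higher and 7.77% lower). Of the 9, 1 (Ftl1) had an unadjusted p under 0.05. Ftl1 differed by 0.50 ± 0.16 (limma, Benjamini-Hochberg adjusted p = 0.0667). It was called higher in fetal liver by DESeq2 (adjusted p = 0.0213), and by limma without WT bone marrow replicate 1 (0.0293) or WT fetal liver replicate 2 (0.0264). The other 8 tested members had differences from -0.39 (Aco1) to 0.40 (Tfrc). Slc40a1, not tested here because its WT fetal liver level entered the choice of genes, differed by -1.25. Groups did not overlap for 2 of the 10 members (Slc40a1 and Steap3, both lower in fetal liver), against 29.5% of all genes. For Steap3 the separation was less than 1 read, between WT replicate 1 of either source, which both round to 22.6 CPM.

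Compared per kilobase of annotated exon, the ferritin chains exceeded every other member by more than an order of magnitude in all 4 groups. In WT bone marrow Ftl1 was at 1739 ± 206 and Fth1 at 606 ± 15.2 CPM per kb (SD, n = 3), followed by Aco1 at 14.8 ± 3.76 and Ncoa4 at 9.12 ± 3.10. Tfrc (7.19 ± 3.34), Hmox1 (6.48 ± 1.48), Slc11a2 (4.95 ± 0.466), Steap3 (4.25 ± 0.259) and Ireb2 (4.19 ± 1.63) followed, and the ranges of mean ± SD overlapped between neighbours from Aco1 to Ireb2. Slc40a1 was last, at 0.541 ± 0.205 CPM per kb.

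The order was nearly the same in WT fetal liver, where Slc40a1 was again last at 0.154 ± 0.0255 CPM per kb. In ETV6-RUNX1 bone marrow Hmox1 was next after the ferritins, at 18.6 ± 1.95 CPM per kb, and Slc40a1 was last at 1.80 ± 0.643, within 1 SD of Steap3 at 2.18 ± 0.745. In ETV6-RUNX1 fetal liver Hmox1 stood at 21.7 ± 4.42 and Aco1 at 15.7 ± 2.86, and Slc40a1 reached 11.8 ± 4.01 CPM per kb, between Aco1 and Ncoa4 (10.5 ± 2.82), with overlapping ranges of mean ± SD. Steap3 was last there, at 0.907 ± 0.347. The lengths are those of all annotated exons of a gene, which need not be the isoforms these cells make.

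The genes whose profile over the 12 libraries was nearest to that of Slc40a1, by the root-mean-square difference of centred log2(CPM + 1), were Ifit2 (0.544), Oas1g (0.571), Mx2 (0.587), 9930111J21Rik1 (0.630) and Stat2 (0.640), where the median over all genes was 2.05. Ifit2 averaged 33.8 and 99.6 CPM in WT and ETV6-RUNX1 bone marrow and 12.3 and 475 CPM in WT and ETV6-RUNX1 fetal liver. Stat2 averaged 48.6, 217, 28.3 and 499 CPM in the same order. These genes were picked for their likeness to Slc40a1 over all 12 libraries, so that they share its order of groups follows from the choice.

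The other genes of iron and heme handling were taken from 6 lists with 85 genes, of which 69 passed the filter. In bone marrow 13 of the 69 were called, 9 higher and 4 lower (18.8%, against 19.4% of all genes). In fetal liver 29 were called, 13 higher and 16 lower (42.0%, against 43.1% of all genes). The split moved with the scaling: it was 6 higher and 7 lower in bone marrow with median-of-ratios scaling, 6 and 6 with edgeR and 8 and 8 with DESeq2, and in fetal liver 10 and 20, 11 and 20, and 11 and 20. The share of called genes in these lists was thus close to that of all genes in both sources. The median difference of the 69 was 0.07 in bone marrow and -0.10 in fetal liver, against 0.13 and 0.08 over all genes.

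**Figure D4:**
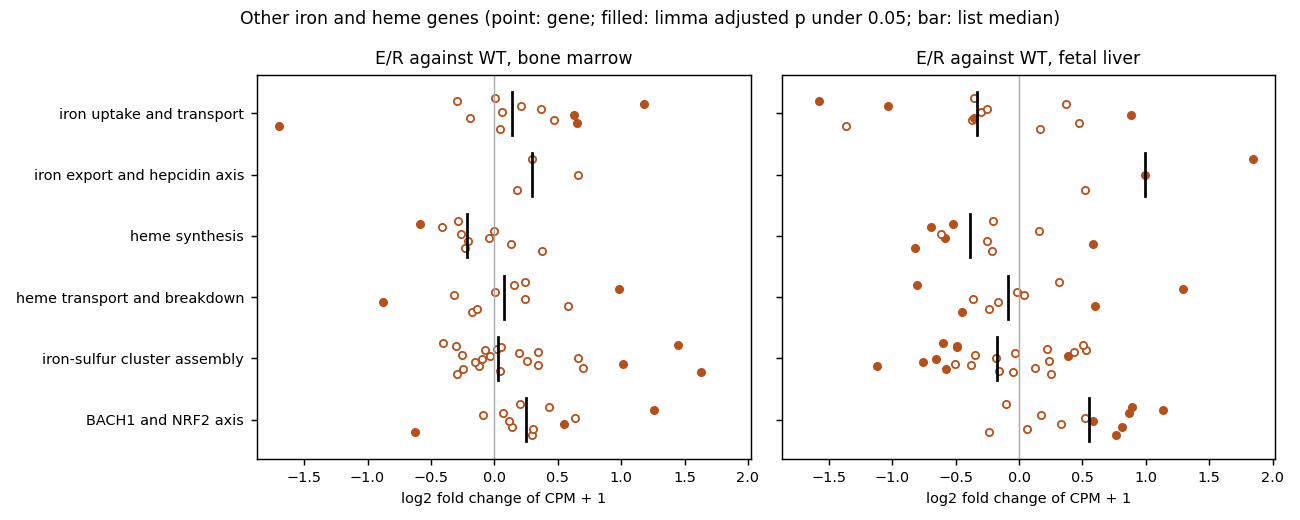
Difference in log2(CPM + 1) between ETV6-RUNX1 and WT cells for the 69 other iron and heme genes, by list, in bone marrow (left) and fetal liver (right). Each point is a gene, filled where the limma Benjamini-Hochberg adjusted p is under 0.05, and black bars are list medians. The iron-sulfur list has 3 filled points in bone marrow, all higher, and 8 in fetal liver, of which 7 are lower.

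Among 12 tested genes of iron uptake and transport, 3 were called higher and 1 lower in bone marrow, and 1 higher and 3 lower in fetal liver. These are 33.3% of the list in either source, against 19.4% of all genes in bone marrow and 43.1% in fetal liver. Tfr2, the second transferrin receptor and a sensor of loaded transferrin, was at 43.5 ± 2.40 CPM in WT and 14.7 ± 6.41 CPM in ETV6-RUNX1 fetal liver (SD, n = 3), and fell by 1.58 ± 0.22 (limma, Benjamini-Hochberg adjusted p = 8.02e-05). In bone marrow Tfr2 was at 88.8 ± 18.3 and 71.5 ± 4.91 CPM. Slc25a28, the mitochondrial iron importer mitoferrin-2, rose by 0.88 ± 0.21 in fetal liver (adjusted p = 0.00337), where Slc39a8 and Pcbp2 were also called lower. In bone marrow Steap4, Slc25a28 and Mcoln1, an endolysosomal channel, were called higher. The call of Mcoln1 (0.65 ± 0.19, adjusted p = 0.0283) was lost with median-of-ratios scaling (0.0715), quantile normalization (0.233) and edgeR (0.0703), in the fit of only the 6 bone marrow libraries (0.0883), and without WT replicate 2 (0.0986) or 3 (0.0608) or ETV6-RUNX1 replicate 1 (0.113) or 2 (0.0713) of bone marrow.

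Ltf, which encodes lactoferrin of neutrophil granules, was called lower in bone marrow (-1.70 ± 0.54, limma, Benjamini-Hochberg adjusted p = 0.0395). It was at 3.83, 25.7 and 2.47 CPM in WT and at 2.19, 0.680 and 1.45 CPM in ETV6-RUNX1 libraries, so that WT replicate 2 stood far above the rest. Without it the difference was -0.79 (adjusted p = 0.0747). Its call was also lost without any 1 of the 3 ETV6-RUNX1 bone marrow libraries (0.0543 to 0.140) and without WT fetal liver replicate 1 (0.0524) or 2 (0.0520).

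Of the 12 genes of iron export and the hepcidin axis, 3 passed the filter, and hepcidin itself (Hamp, Hamp2) was listed at 0. In bone marrow 0 of the 3 were called, and in fetal liver Neo1 and Hfe were called higher, where 24.8% of all genes were. Neo1, or neogenin, a coreceptor for bone morphogenetic proteins, was at 1.71 ± 0.865 CPM in WT and 8.54 ± 2.34 CPM in ETV6-RUNX1 fetal liver (1.85 ± 0.30, limma, Benjamini-Hochberg adjusted p = 0.000216).

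Heme synthesis had 10 tested genes. In bone marrow 1 was called, Urod, lower by -0.58 ± 0.17 (limma, Benjamini-Hochberg adjusted p = 0.0257). In fetal liver 4 were called lower (Alad, Tmem14c, Fech and Urod) and 1 higher (Alas1). These are 10% of the list in bone marrow, against 19.4% of all genes. In fetal liver they are 50% of the list, against 43.1% of all genes (24.8% higher and 18.3% lower). Alad, which joins aminolevulinic acid into porphobilinogen, was at 78.7 ± 4.59 CPM in WT and 44.1 ± 2.85 CPM in ETV6-RUNX1 fetal liver and fell by 0.82 ± 0.14 (adjusted p = 0.000406). Alas1, the first enzyme of the pathway outside erythroid cells, was at 68.4 ± 2.78 and 103 ± 8.77 CPM and rose by 0.58 ± 0.12 (adjusted p = 0.00165). The bone marrow call of Urod was lost without WT replicate 1 (0.0804) or 2 (0.0517) or ETV6-RUNX1 replicate 1 (0.0721) or 2 (0.118).

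Heme transport and breakdown beyond Hmox1 had 10 tested genes, with 1 called higher (Lrp1) and 1 lower (Cd163) in bone marrow, and 2 higher (Lrp1, Blvrb) and 2 lower (Slc46a1, Abcg2) in fetal liver. These shares, 20% in bone marrow and 40% in fetal liver, were close to the 19.4% and 43.1% of all genes. Lrp1, the receptor for heme bound to hemopexin, was at 1.73 ± 0.371 CPM in WT and 5.66 ± 0.372 CPM in ETV6-RUNX1 fetal liver (1.29 ± 0.19, limma, Benjamini-Hochberg adjusted p = 9.52e-05). Slc46a1, a folate and heme carrier, was called lower there (-0.81 ± 0.24, adjusted p = 0.0144), but not without ETV6-RUNX1 replicate 2 (-0.59, 0.0723).

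Iron-sulfur cluster assembly had 22 tested genes, with 3 called higher in bone marrow (Bola3, Nubp1 and Gfer), 13.6% of the list against 19.4% of all genes. In fetal liver 7 were called lower and 1 higher, 36.4% of the list against 43.1% of all genes (18.3% lower), with a list median of -0.17 against 0.08. Those lower included Fdxr, the reductase that feeds electrons to the pathway, the cysteine desulfurase Nfs1 and the glutaredoxin Glrx5. Fdxr was at 25.4 ± 2.05 CPM in WT and 11.1 ± 0.664 CPM in ETV6-RUNX1 fetal liver and fell by 1.12 ± 0.15 (limma, Benjamini-Hochberg adjusted p = 4.67e-05), while in bone marrow it was at 23.2 ± 2.41 and 21.3 ± 1.71 CPM. Bola3 rose by 1.63 ± 0.43 in bone marrow (adjusted p = 0.0182), a call lost without WT replicate 1 (0.0551) or ETV6-RUNX1 replicate 1 (0.0721) or 2 (0.0838). The gene called higher in fetal liver, Isca1 (0.39 ± 0.12, adjusted p = 0.0197), was not called with median-of-ratios scaling (0.0632), quantile normalization (0.0577), edgeR (0.0724) or DESeq2 (0.0507), nor without WT replicate 1 (0.0507) or 2 (0.0533) or ETV6-RUNX1 replicate 2 (0.0944) of fetal liver.

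BACH1 is a heme-sensing repressor and NRF2 an activator, and both act on Hmox1 and on a set of antioxidant genes. Of 12 tested genes of that list, 2 were called higher (Slc7a11, Keap1) and 1 lower (G6pdx) in bone marrow, and 6 higher and 0 lower in fetal liver (Slc7a11, Srxn1, Nqo1, Gclm, Bach1 and Mafg). These are 25.0% and 50.0% of the list, against 19.4% and 43.1% of all genes, and the list median was 0.25 in bone marrow and 0.55 in fetal liver, against 0.13 and 0.08. Slc7a11, the cystine importer, was at 4.79 ± 1.24 CPM in WT and 13.3 ± 5.44 CPM in ETV6-RUNX1 bone marrow (1.26 ± 0.26, limma, Benjamini-Hochberg adjusted p = 0.00464) and at 4.40 ± 0.656 and 10.9 ± 1.25 CPM in fetal liver (1.13 ± 0.26, adjusted p = 0.00263). Bach1 itself was at 19.7 ± 1.56 CPM in WT and 34.3 ± 6.01 CPM in ETV6-RUNX1 fetal liver (0.76 ± 0.19, adjusted p = 0.00499). G6pdx, the first enzyme of the pentose phosphate pathway, fell by 0.63 ± 0.16 in bone marrow (adjusted p = 0.0147), a call lost without WT replicate 3 (0.0501) or ETV6-RUNX1 replicate 1 (0.0616).

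The ETV6-RUNX1 effect itself was called as different between the sources for 6 of the 69 other genes, 2 with a greater and 4 with a smaller value in fetal liver (8.70%, against 9.19% of all genes, 5.56% greater and 3.62% smaller). They were Neo1 and Nqo1, and Tfr2, Pcbp1, Gfer and Fdxr. With the processed pseudogene share as a covariate 1 was called, and that share differed with genotype in opposite directions in the sources. The count ran from 2 to 13 when 1 library was left out: it was 13 without WT bone marrow replicate 1, 2 without ETV6-RUNX1 bone marrow replicate 1 or WT fetal liver replicate 2, and 3 without WT bone marrow replicate 2 or 3 or ETV6-RUNX1 fetal liver replicate 1 or 2. The bone marrow count of 13 fell to 4 without ETV6-RUNX1 bone marrow replicate 1, to 7 without its replicate 2 and to 8 without WT bone marrow replicate 2.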

How the data were processed

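Per the labels' protocols, RNA came from a Norgen single-cell kit, libraries from the SMARTer pico kit for stranded total RNA, and paired reads from a NovaSeq. The submitters' processing notes name GRCm38, bcl2fastq, STAR 2.5.1a, Subread, featureCounts 1.4.6-p5, Salmon 0.8.2, edgeR and limma; their roles, the annotation and the strand setting are not given in the sources used here, so overlapping and antisense genes are uncertain. The authors deposited CPM per gene for the 12 libraries. All values were whole multiples of 1 read (tolerance 0.01), so reads were recovered. The 40757 entries held 276 repeats of an ID, each used once. The CPM of the genes listed summed to 99.8% to 99.9% of 1 M in each library, so no further scaling of the libraries was seen. A floor of 3 reads equalled 0.0465 to 0.0928 CPM, which limits counting error only, because no molecular identifiers tell PCR copies from separate molecules.

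The main test was limma 3.58.1 (R 4.3.3, mean-variance trend) on log2(CPM + 1), two-sided, with 4 group coefficients, 8 residual degrees of freedom and Benjamini-Hochberg adjustment over 14271 genes at a threshold of 0.05. Fold changes on this scale understate those of low genes. The test was also run on simulated data with the same dispersion for all genes and no library-quality effect. That run does not show how the test performs on these libraries. Ratios within a library were compared by exact permutation tests. The members and lists were chosen with earlier results of these data known. Named genes were all members, per list and comparison the called genes of largest rise and fall with a group mean of at least 5 CPM, and the 5 profiles nearest to Slc40a1; other called genes, marker genes and Bach1 were named after their values were seen. Hjv is listed under its older symbol Hfe2. The settings also tried were median-of-ratios scaling and quantile normalization, a pseudocount of 0.1, filters that kept all 29278 genes with reads or the 10648 with a mean of 5 CPM or more, edgeR 4.0.16 (quasi-likelihood, TMM) and DESeq2 1.42.0 on the recovered reads, the replicate number as a block, only the 6 libraries compared, leaving out each library, and, added after seeing the data, each library's processed pseudogene share as a covariate. GENCODE M21 gave positions, exon lengths and UTRs. The result of 1 erythroid marker is not reported here.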

Additional observations from a re-analysis of the deposited data

Results flagged for a closer look

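For 4 named genes of the other iron and heme lists, the ETV6-RUNX1 effect differed between fetal liver and bone marrow by limma's test of the difference itself, on the log2(CPM + 1) scale. Tfr2 differed by -1.28 ± 0.32 (limma, Benjamini-Hochberg adjusted p = 0.0221), as its mean went from 88.8 to 71.5 CPM in bone marrow and from 43.5 to 14.7 CPM in fetal liver (WT to ETV6-RUNX1). Neo1 differed by 1.55 ± 0.42 (limma adjusted p = 0.0333), with means from 3.60 to 4.50 CPM in bone marrow and from 1.71 to 8.54 CPM in fetal liver. Gfer, a sulfhydryl oxidase of the mitochondrial intermembrane space, differed by -1.51 ± 0.32 (limma adjusted p = 0.0106), with means from 7.32 to 16.3 CPM in bone marrow and from 10.6 to 7.16 CPM in fetal liver. Nqo1, a quinone reductase, differed by 0.80 ± 0.21 (limma adjusted p = 0.0306), with means from 54.8 to 57.6 CPM in bone marrow and from 24.7 to 46.2 CPM in fetal liver. Over all genes with reads the calls of Tfr2 (adjusted p = 0.0776) and Neo1 (0.122) were lost. With the processed pseudogene share as a covariate those of Neo1 (0.51, adjusted p = 0.543), Gfer (0.0567) and Nqo1 (0.108) were lost, and that of Nqo1 also with quantile normalization (0.0571). The difference for Gfer was called without each library in turn, while leaving out 1 library ended the call of Tfr2 for 4 libraries (ETV6-RUNX1 fetal liver 1, adjusted p = 0.0615; WT bone marrow 3, 0.0535; ETV6-RUNX1 bone marrow 1, 0.0531; WT fetal liver 2, 0.0522). It ended that of Neo1 for WT bone marrow 2 (0.0912) and 3 (0.0545), ETV6-RUNX1 bone marrow 1 (0.0736) and 3 (0.0574), WT fetal liver 2 (0.0525) and 3 (0.0865) and ETV6-RUNX1 fetal liver 1 (0.0908) and 2 (0.0739). For Nqo1 these were WT bone marrow 2 (0.0822) and 3 (0.0555), ETV6-RUNX1 bone marrow 1 (0.0683) and 2 (0.0550), WT fetal liver 1 (0.0583) and 2 (0.0754) and ETV6-RUNX1 fetal liver 2 (0.0801).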

How the results depend on the processing

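The count of members called in bone marrow, 3 with limma, was 6 with median-of-ratios scaling, 7 with quantile normalization, 6 with edgeR and 5 with DESeq2, and 2 to 5 when 1 library was left out (5 without WT bone marrow replicate 1). Of all 14271 genes, 2763 were called there with limma on the deposited scaling. The numbers were 2829 with median-of-ratios scaling, 2572 with quantile normalization, 2739 with edgeR and 3297 with DESeq2. The count between WT sources, 0, was 1 with DESeq2 and 0 to 1 when 1 library was left out. The fetal liver difference of Slc40a1, 5.44, was 6.11 with a pseudocount of 0.1, 6.16 with edgeR, 6.18 with DESeq2, 4.98 with the pseudogene share as a covariate and 5.18 to 5.59 when 1 library was left out. Of the other iron and heme genes, the 13 called in bone marrow became 7 over all genes with reads, 8 with the 6 bone marrow libraries fitted alone and 4 to 15 when 1 library was left out. The 6 called for the difference of the effects became 3 over all genes with reads, 1 with the covariate and 2 to 13 when 1 library was left out. Aco1 reversed to 0.47 in bone marrow with the covariate. The cause of these changes was not tested. The bone marrow calls of Ltf, Urod and Bola3 were lost over all genes with reads (limma adjusted p = 0.140, 0.0635 and 0.0805), those of Ltf and Urod with the 6 bone marrow libraries alone (0.118 and 0.0857), and with the covariate those of Ltf (0.110) and G6pdx (0.0524) and the fetal liver calls of Slc46a1 (0.103) and Isca1 (0.0743). The lowest count of any member was 65 reads, for Slc40a1 in WT fetal liver replicate 1, against a floor of 3 reads. Whether depth limited the members was not tested, and the number of libraries, 3 per group, limits the precision.

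Libraries that share a replicate number did not deviate together (correlations in bone marrow -0.307, 0.118 and -0.404, in fetal liver 0.160, -0.085 and 0.221), so the numbers were not taken as pairs. With the replicate block, 3 members were called in bone marrow and 0 between WT sources, Slc40a1 differed by 5.44 in fetal liver, and 13, 27 and 6 of the other genes were called in bone marrow, fetal liver and the difference of the effects.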

Other observations

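Between the WT sources, 8 of the 69 other iron and heme genes were called, 2 higher and 6 lower in fetal liver than in bone marrow (11.6%, against 11.1% of all genes; limma, counted after the values were seen). Cd163, the scavenger receptor for hemoglobin bound to haptoglobin, was lower by -2.24 ± 0.24 (limma, Benjamini-Hochberg adjusted p = 3.73e-05). Nqo1 was lower by -1.12 ± 0.15 (adjusted p = 0.000208), Trf, the gene of transferrin, by -1.11 ± 0.21 (adjusted p = 0.00276), and Tfr2 by -0.99 ± 0.22 (adjusted p = 0.00960). Gclm and Abcg2 were also called lower, and Tmem14c, a mitochondrial protein of heme synthesis, and Lrp1 higher. None of the 22 iron-sulfur genes was called in this comparison by limma.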
